A study of Mus musculus with 27 samples.

Results

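Zone 3 of the maternal liver at day 8 post coitum (dpc8) was compared with zone 3 of the non-pregnant (NP) liver, over every gene whose FPKM reached 1 in 3 or more of the 6 libraries. FPKM counts the sequenced fragments of a gene relative to the length of its transcripts and to the size of the library, and 11015 of the 21823 genes in the table met this rule. The study collected lobular zones of frozen liver sections by laser capture microdissection from wild-type female mice labelled C57BL/6 (C57BL/6N in the methods) that were NP, at dpc8 or at dpc16, and sequenced 3 libraries for each stage and zone. The mice carried no transgene and received no agent according to the labels, and the methods give an age of 8 to 14 weeks. Areas of 2 mm2 of tissue were pooled for a library, so each library is a mixture of all cells in the captured area. The labels do not tie libraries to single animals, so the p-values below measure the spread between libraries, which may be technical in part. In the main fit this spread is pooled over all 27 libraries. The comparison asks what differs around the central vein by mid-gestation.

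The liver lobule runs from the portal vein, where blood enters, to the central vein, where it leaves. Zone 3 is the stretch around the central vein, where Wnt ligands from the central vein endothelium sustain glutamine synthesis (Glul), drug metabolism (Cyp2e1, Cyp1a2) and other pericentral functions. In pregnancy the liver is exposed to prolactin and placental lactogens, to altered growth hormone release and to rising sex steroids. Prolactin and growth hormone act on hepatocytes through the transcription factor STAT5, and many liver genes that differ between males and females follow the pattern of growth hormone release. A1bg, which encodes the plasma protein alpha-1-B glycoprotein, is a female-biased gene of the mouse liver.

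The 6 libraries had FPKM sums of 562581 to 662637, between 10675 and 11342 genes at an FPKM of 1 or more, and estimated depths of 11.7 to 20.5 M reads. Their log2 values correlated with each other at 0.898 to 0.968, and at 0.906 to 0.968 within a group. The zone label went together with its defining markers. Glul had means of 3082 FPKM in NP and 2454 at dpc8 in zone 3, against 50.2 and 44.0 in zone 1, and Cyp2f2, a defining zone 1 gene, was between 0.716 and 19.98 FPKM in the zone 3 libraries. Of the 31 listed pericentral markers, Sult5a1 went against its list, with NP means of 3.06 FPKM in zone 3 and 47.7 in zone 1. The summed pericentral markers ranged from 18557 to 29406 FPKM in NP and from 24071 to 25461 at dpc8. Among the 6 libraries, NP zone 3 replicate 2 stood apart. Its Y-linked genes summed to 7.92 FPKM, against 0.973 at most in the 5 other libraries, although all mice are labelled female. Its mean log2 value over the connective tissue and smooth muscle genes was 4.58, against 2.24 to 3.50 in the others. Outside this comparison, 5 libraries of zones 1 and 2 and of dpc16 had higher values still. Their Y-linked sums were 15.4 to 23.2 FPKM and their connective tissue means 5.77 to 6.24. They enter the zone 1, zone 2 and dpc16 values below. Through the spread pooled over all 27 libraries they also enter the SE and p-values of the zone 3 comparison. Values that moved by over 1.5 times without NP zone 3 replicate 2 are given both ways, as are list medians that did so with a connective tissue covariate (the mean log2 value of these genes, added to the fit). NP zone 3 replicate 1 held bile duct genes that were near 0 elsewhere, with Krt19 at 15.01 FPKM, Epcam at 4.79, Cldn7 at 2.93 and Cftr at 2.05, against at most 3.15 for Krt19 and 0 for the other 3 genes in the 5 other libraries. Without that library the log2 fold change of A1bg was 5.32 with a limma adjusted p of 0.00061.

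The leading gene of the comparison, A1bg, is shown with 250 bases upstream of its RefSeq start. It has the largest fold change on the log2(FPKM + 1) scale. Beside it stand Bcl6, a repressor that competes with STAT5 for DNA, and Cyp3a44, a female-biased cytochrome P450 gene. The windows are on GRCm38, chr15:60921271-60921520, chr16:23988853-23989102 and chr5:145805875-145806124, all on the minus strand, and are written 5′ to 3′ on the gene's strand. Capitals mark TTCNNNGAA, the letters of the consensus that STAT5 binds, searched on both strands (it reads alike on both).
A1bg: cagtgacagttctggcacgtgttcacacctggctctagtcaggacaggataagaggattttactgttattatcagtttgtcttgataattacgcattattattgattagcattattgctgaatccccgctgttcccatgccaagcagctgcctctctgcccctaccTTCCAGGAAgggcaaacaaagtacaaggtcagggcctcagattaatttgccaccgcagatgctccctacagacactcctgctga
Bcl6: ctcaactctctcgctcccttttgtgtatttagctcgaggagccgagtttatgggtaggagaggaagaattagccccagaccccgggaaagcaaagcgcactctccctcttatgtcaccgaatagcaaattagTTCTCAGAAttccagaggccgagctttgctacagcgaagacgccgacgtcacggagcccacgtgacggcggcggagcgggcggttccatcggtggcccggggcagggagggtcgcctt
Cyp3a44: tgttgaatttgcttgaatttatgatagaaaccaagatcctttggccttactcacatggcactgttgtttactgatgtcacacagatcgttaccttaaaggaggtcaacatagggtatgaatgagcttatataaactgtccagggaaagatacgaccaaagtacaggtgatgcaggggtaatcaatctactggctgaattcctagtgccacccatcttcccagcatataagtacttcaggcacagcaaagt
The A1bg window held 1 match, which begins 84 bases before the RefSeq start (-84), and the Bcl6 window 1 match at -118. GENCODE places the start of A1bg further upstream, so this A1bg window and its match lie inside the gene span that GENCODE gives. Of 27025 mouse promoters of this length, 7.18% held at least 1 match. The Cyp3a44 window held none, which says only that these letters are not in this stretch. Of the female-biased growth hormone-responsive genes, 21 of 26 have a window in the table and 4 of the 21 held a match (A1bg, Hamp2, Slc22a26 and Sult3a1). Of the male-biased ones, 16 of 24 have a window and 1 of the 16 held a match (C8a).

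Pregnancy at dpc8 was accompanied by a higher level of A1bg in zone 3. In the fit of all 27 libraries A1bg had the largest fold change among the genes tested on the log2(FPKM + 1) scale. By limma with Benjamini-Hochberg adjustment over the 11015 genes, 2 genes, A1bg among them, were higher at dpc8 (0.0182% of those tested) and 0 lower (0.0%). Without adjustment, 144 genes were higher (1.31%) and 175 lower (1.59%) at p under 0.05, or 319 in all (2.9%). A log2 fold change of at least 1 was seen upwards in 101 genes (0.917%) and downwards in 194 (1.76%). The 3 values of one group all lay beyond the 3 of the other in 549 genes higher at dpc8 (4.98%) and 551 lower (5.0%). The median log2 fold change over all genes was -0.01, and the median SE of a single gene was 0.35. When the model held these 6 libraries alone, 0 genes passed and 516 had an unadjusted p under 0.05.

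The gene A1bg lies on chromosome 15, 60896859 to 60923012, minus strand (mm10; ENSMUSG00000022347.8). It was measured at 38.7, 30.4 and 16.1 FPKM in the NP libraries and at 1831, 691 and 628 in the dpc8 libraries. The lowest dpc8 value lay far above the highest NP value, and the groups did not overlap. The means were 28.4 ± 11.4 in NP and 1050 ± 677 at dpc8 (SD, n = 3 each), a ratio of 36.9. On the log2(FPKM + 1) scale its fold change was 5.06 ± 0.57 (SE) with a limma adjusted p of 1.28e-04. Without NP replicate 2 the log2 fold change of A1bg was 5.15 with a limma adjusted p of 0.00127. With the 6 libraries alone the limma adjusted p of A1bg was 0.0565, above the threshold of 0.05. By mean FPKM, A1bg stood at rank 2744 of the 21823 genes in NP zone 3, at rank 79 at dpc8 and at rank 100 at dpc16.

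Some genes entered the test through the libraries of 1 stage only, 20 of them through the dpc8 libraries and 27 through the NP libraries, and A1bg was above the minimum in all 6. The exact permutation test, two-sided, gave p = 0.1 for A1bg, the smallest value that 3 against 3 libraries allow.

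**Figure D1:**
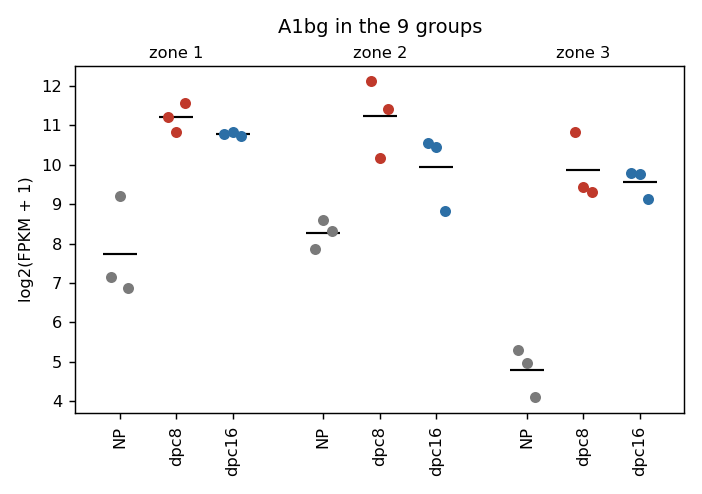
Level of A1bg as log2(FPKM + 1) in each of the 27 libraries, by zone and stage; points are libraries and bars are group means. In zone 3, A1bg rises from 28.4 FPKM in NP to 1050 at dpc8 and is 769 at dpc16.

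A1bg was also compared across zones and stages. The mean FPKM of A1bg in NP livers was lowest in zone 3, at 28.4 ± 11.4, against 282 ± 267 for zone 1 and 312 ± 78.9 for zone 2 (SD, 3 libraries each). At dpc8 the means of A1bg were 2406 ± 622, 2753 ± 1631 and 1050 ± 677, and at dpc16 they were 1754 ± 64.7, 1108 ± 571 and 769 ± 181 (SD, n = 3 each). At dpc8 the log2 fold change of A1bg was 3.46 in zone 1 and 2.97 in zone 2, against 5.06 in zone 3. The difference between the changes was 1.60 ± 0.81 (SE) for zone 3 against zone 1 and 2.096 ± 0.81 (SE) for zone 3 against zone 2, with unadjusted limma p-values of 0.0611 and 0.0171 and adjusted values of 0.9998 and 0.998. A larger change in zone 3 was thus not shown. Without the 6 libraries whose Y-linked genes summed to 5 FPKM or more, called libraries with Y-linked values here, the log2 fold changes of A1bg were 3.16 in zone 1 and 3.49 in zone 2, with limma adjusted p-values of 0.0946 and 0.0336 against 0.0258 and 0.197 with all libraries. Without them the log2 fold change of A1bg at dpc16 in zone 3 was 5.07, and the differences of the zone 3 change were 1.99 to zone 1 and 1.66 to zone 2, with limma adjusted p-values of 0.9998 and 0.995. In zone 3 at dpc16 A1bg had a log2 fold change of 4.76 over the same NP libraries that serve the dpc8 comparison.

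None of the genes that follow passed the adjusted threshold, so they are given by their values. By a fixed rule, the 12 genes per direction with the largest log2 fold change were taken among those with an unadjusted p under 0.05, groups that did not overlap and a mean of at least 5 FPKM in the higher group, a rule that 80 genes met with higher and 93 with lower values at dpc8. The plot of named genes shows the values by library for those reported here.

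**Figure D2:**
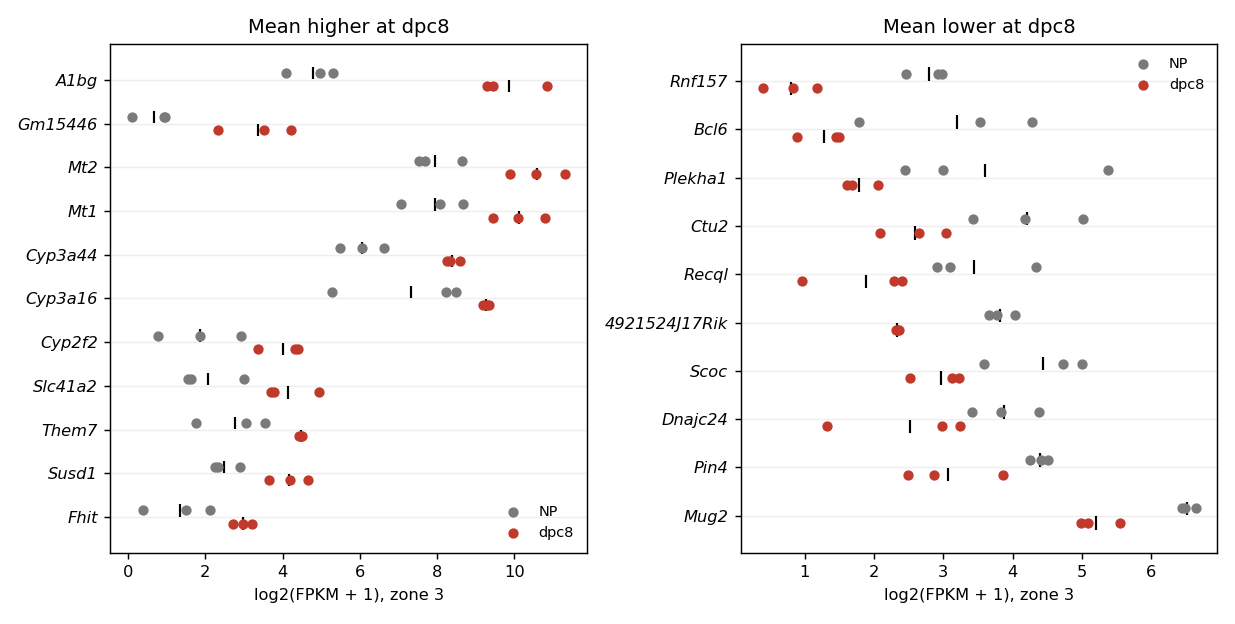
Level of the named genes as log2(FPKM + 1) in the 3 NP (grey) and 3 dpc8 (red) zone 3 libraries; black ticks are group means. A1bg is past the adjusted threshold; in the other rows the groups are apart, but several NP groups, such as Cyp3a16, Bcl6 and Plekha1, hold 1 library far from the others.

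The list of female-biased growth hormone-responsive genes holds enzymes and transporters of steroid and drug metabolism together with A1bg. Of 26 genes, 25 were tested, 21 had a positive log2 fold change (48.6% of all genes tested did) and the median was 0.66. With limma, 1 of them passed the adjusted threshold (A1bg) and 6 had an unadjusted p under 0.05 with higher values at dpc8, against 1.31% of all genes. Cyp3a44, a cytochrome P450 enzyme, was 44.1, 65.3 and 98.1 FPKM in NP and 385, 323 and 303 at dpc8, with a log2 fold change of 2.33 ± 0.51 (SE) and a limma adjusted p of 0.432. The groups did not overlap, and the value without NP replicate 2 was again 2.33. Cyp3a16 was 359, 37.5 and 296 FPKM in NP and 581, 649 and 626 at dpc8. Its log2 fold change of 1.95 rested on the low NP replicate 2 and was 0.92 without that library. The other members at an unadjusted p under 0.05 were Cyp3a41b (log2 fold change 1.87, or 1.19 without NP replicate 2), Cyp2a4 (1.22, or 0.80), a testosterone hydroxylase, and Slc22a26 (0.66), an organic anion transporter. Without NP replicate 2 the median of the list was 0.37, with 16 of 25 genes positive.

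The values of this gene family depend on how reads are assigned. Of the 86-base stretches of its transcripts, the read length used, Cyp3a41a shares 93.7% and Cyp3a41b 89.7% with other protein-coding genes, so the levels of this pair are uncertain. The share is 5.01% for Cyp3a44, 0.973% for Cyp3a16 and 16.2% for Cyp2a4. A1bg, Mt1 and Mt2 share 0.0%. Cyp2b13, a female-biased gene, was 125, 51.3 and 177 FPKM in NP and 98.2, 71.0 and 88.6 at dpc8, with a log2 fold change of -0.29 in zone 3 (-0.80 without NP replicate 2) and -2.54 in zone 1. The difference between these changes had an unadjusted limma p of 0.00196 and an adjusted p of 0.9998.

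Of the 22 male-biased growth hormone-responsive genes tested, 18 had a positive log2 fold change, 1 had an unadjusted p under 0.05 (Elovl3, a fatty acid elongase, log2 fold change 1.38; 1.31% of all genes had higher values at this p) and the median was 0.27. That median was 0.45 without NP replicate 2 and 0.06, with 12 of 22 positive, with the connective tissue covariate. Among 23 genes of prolactin, growth hormone, estrogen and IGF signaling, 13 were positive and the median was 0.11, or 0.03 with the covariate. Bcl6, the repressor whose promoter is shown above, was 10.6, 18.5 and 2.43 FPKM in NP and 1.82, 1.74 and 0.854 at dpc8. The groups did not overlap, but the NP values were spread widely, and the difference for Bcl6 was -1.92 ± 0.67 (SE) with a limma adjusted p of 0.999, or -1.37 without NP replicate 2. Prlr, the prolactin receptor, was 335, 366 and 345 FPKM in NP and 629, 460 and 486 at dpc8, with a log2 fold change of 0.58 ± 0.38 (SE). Socs2, a feedback inhibitor of growth hormone signaling, had a log2 fold change of 0.59 with overlapping groups.

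The metallothioneins Mt1 and Mt2, small proteins that bind zinc and copper, also had higher values among the abundant genes. Mt2 was 400, 184 and 205 FPKM in NP and 2548, 1516 and 936 at dpc8. Mt1 was 403, 132 and 269 FPKM in NP and 1781, 1094 and 695 at dpc8. Neither gene had overlapping groups. The log2 fold changes were 2.63 ± 0.76 (SE) for Mt2 and 2.18 ± 0.71 (SE) for Mt1, both with a limma adjusted p of 0.999. For zone 1 they were 1.17 and 0.53, or 0.65 and 0.35 without the libraries with Y-linked values, and for zone 2 they were 2.95 and 1.96. At dpc16 the log2 fold changes in zone 3 over the same NP libraries were 2.80 for Mt2 and 2.65 for Mt1.

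Mt1 and Mt2 were counted with the plasma protein and acute phase genes. Of 49 genes tested in this list, 35 were positive with a median of 0.26, and 12 had groups that did not overlap with higher values at dpc8, against 4.98% of all genes. With the connective tissue covariate 21 of the 49 were positive and the median was -0.05. Besides the metallothioneins these included Orm1, Serpina3n and C3, with log2 fold changes of 0.84, 0.67 and 0.59. Orm1, which shares 10.9% of its 86-base stretches with Orm2, encodes an acid glycoprotein, Serpina3n a protease inhibitor and C3 the central complement component. In the other direction, 3 of the 49 had lower values at dpc8 without overlap, against 5.0% of all genes. The carriers Ttr, Apoc1 and Apoc3 had lower values at dpc8 without overlap. Ttr, transthyretin, was 3303, 3338 and 3557 FPKM in NP and 2274, 2387 and 2591 at dpc8, with a log2 fold change of -0.49 ± 0.38 (SE). Single libraries stood out. Lcn2 was 156 FPKM in dpc8 replicate 1 and 21.9 and 27.8 in the others, and Saa1 was 220, 20.3 and 25.3 at dpc8 against 24.96 to 32.3 in NP. Both were chosen after their values were seen, and the same replicate 1 had the highest A1bg, Mt1 and Mt2 values. Without it the log2 fold change of A1bg was 4.57.

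**Figure D3:**
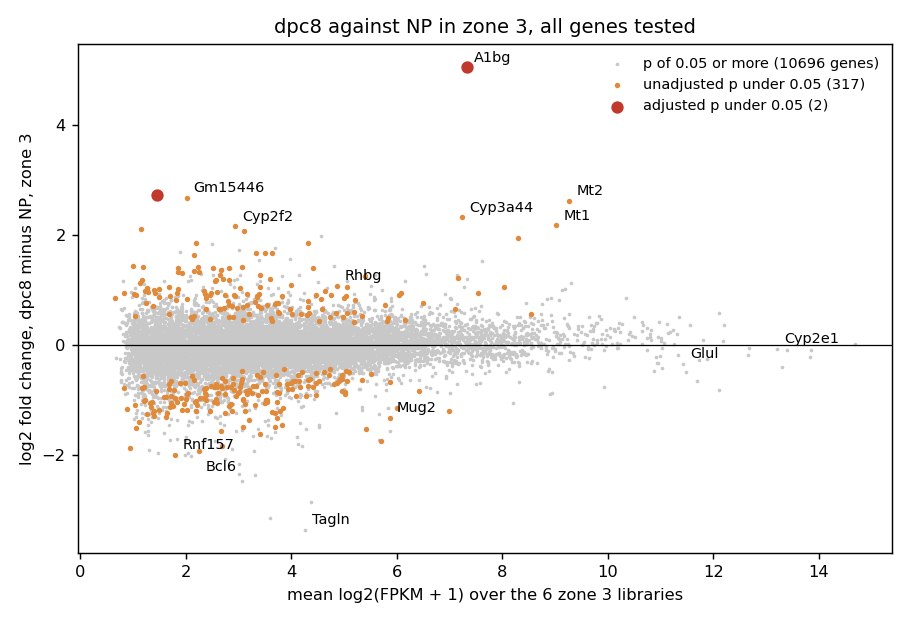
Log2 fold change at dpc8 against NP in zone 3 (y axis) by mean log2(FPKM + 1) over the 6 libraries (x axis) for the 11015 genes tested. A1bg lies apart at 5.06, and Mt1, Mt2 and Cyp3a44 lie high among the abundant genes; Tagln, a smooth muscle gene, is low but did not pass.

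Of 31 pericentral markers, 17 were positive and 14 negative with a median log2 fold change of 0.03. With higher values, 1 of the 31 had an unadjusted p under 0.05, against 1.31% of all genes. Without NP replicate 2 there were 11 positive and a median of -0.03, and with the covariate 13 and -0.09. The gene at an unadjusted p under 0.05 was Rhbg, an ammonium transporter, at 26.8, 8.04 and 31.6 FPKM in NP and 36.0, 42.0 and 47.7 at dpc8. Its log2 fold change was 1.08 ± 0.37 (SE), or 0.50 without NP replicate 2, its lowest value. Glul, glutamine synthetase, was 3264, 2890 and 3092 FPKM in NP and 2697, 2042 and 2621 at dpc8. All 3 dpc8 values of Glul were below those in NP, with a log2 fold change of -0.34 ± 0.43 (SE) and a limma adjusted p of 0.999. Cyp2e1, the main ethanol-oxidising P450, ranged from 7106 to 11838 FPKM in NP and from 7751 to 10617 at dpc8, with a log2 fold change of -0.06 ± 0.41 (SE), and Cyp1a2 had 0.25 ± 0.53 (SE). Without NP replicate 2 they were -0.28 and 0.10. The Wnt target Axin2 and its fellow Rnf43 had log2 fold changes of -0.54 (-0.34 without NP replicate 2) and -0.57 with overlapping groups. Over the 18 other settings Axin2 ranged from -0.78 to -0.18 and Rnf43 from -0.79 to -0.33. Tbx3, a pericentral transcription factor, had 0.08, or 0.12 without NP replicate 2.

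Genes of the opposite zone were also followed in zone 3. Of 20 periportal markers tested, 15 were positive (against 48.6% of all genes) with a median log2 fold change of 0.26, and 3 had higher values at an unadjusted p under 0.05 (against 1.31%). With the connective tissue covariate 10 of the 20 were positive and the median was 0.03. Cyp2f2, a P450 enzyme of zone 1, was 2.61, 6.60 and 0.716 FPKM in NP zone 3 and 9.24, 19.1 and 19.98 at dpc8, without overlap. Its log2 fold change was 2.17 ± 0.52 (SE) with a limma adjusted p of 0.589, and 2.71 with an adjusted p of 0.101 without NP replicate 2. In zone 1 Cyp2f2 was 1048 ± 477 FPKM in NP and 1014 ± 394 at dpc8 (SD, n = 3 each), far above its level in zone 3 at either stage. The change of Cyp2f2 in zone 3 minus that in zone 1 was 2.18 ± 0.73 (SE), with an unadjusted limma p of 0.00672 and an adjusted p of 0.9998. Hal, the histidine-degrading enzyme, was 3.14, 16.5 and 2.49 FPKM in NP and 16.7, 29.6 and 14.4 at dpc8, and Hsd17b13, a lipid droplet enzyme, had a log2 fold change of 1.10. The summed periportal markers were 3126 to 5667 FPKM in NP and 2750 to 5557 at dpc8, and the part that the border of the captured area has in these values was not tested.

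Genes of drug metabolism and fatty acid oxidation had mostly positive log2 fold changes at dpc8, with medians that were lower under the connective tissue covariate. Of 39 xenobiotic cytochrome P450 genes tested, 33 were positive with a median log2 fold change of 0.41, and 6 had an unadjusted p under 0.05 with higher values (against 1.31% of all genes), 4 of which are the female-biased genes above. The others were Cyp2f2 and Cyp2c55 (log2 fold change 1.41). With the covariate 25 of the 39 were positive and the median was 0.20. Of 40 conjugating enzymes, 34 were positive with a median of 0.27. Without NP replicate 2 this was 27 of 40 and a median of 0.09, and with the covariate 24 of 40 and 0.06. Of 25 genes of fatty acid oxidation and ketogenesis, 24 were positive with a median of 0.46, or 20 with a median of 0.17 under the covariate. Of these 25 genes, 1 had an unadjusted p under 0.05 with higher values, against 1.31% of all genes. This gene was Plin2, which coats lipid droplets. It stood at 261, 162 and 135 FPKM in NP and 392.1, 407 and 332 at dpc8, without overlap. The log2 fold change of Plin2 was 1.07 ± 0.43 (SE) with a limma adjusted p of 0.999. No member of the lists of conjugating enzymes, P450 enzymes or fatty acid oxidation genes passed the adjusted threshold.

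Genes of glucose use and lipid synthesis had lower values in part. Ppp1r3b, which directs a phosphatase to glycogen, was 86.7, 82.6 and 119 FPKM in NP and 53.6, 38.2 and 36.8 at dpc8, without overlap, a log2 fold change of -1.15 ± 0.49 (SE) with a limma adjusted p of 0.999. In the whole list of glucose and glycogen metabolism, 11 of 24 genes were positive and the median was -0.03, or -0.18 without NP replicate 2 and -0.08 with the covariate. Of the genes of glucose metabolism that the study followed, Sgk1 had a log2 fold change of -0.71 and H6pd 0.52. Pdk4 had 0.93 and Slc45a3 0.12, or 1.49 and 0.38 without NP replicate 2. Over the 18 other settings Pdk4 ranged from 0.21 to 1.49 and Slc45a3 from -0.69 to 0.67. Each of the genes had an SE of at least 0.42 and none an unadjusted p under 0.05.

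Of 22 genes of cholesterol synthesis and uptake, 18 were negative (51.4% of all genes tested were) with a median of -0.32, and without NP replicate 2 the median was -0.51 with 20 of 22 negative. Rnf145, a ubiquitin ligase of sterol control, was 22.6, 12.5 and 22.8 FPKM in NP and 8.35, 8.75 and 5.43 at dpc8, with a log2 fold change of -1.23 ± 0.27 (SE) and a limma adjusted p of 0.432. Srebf1, which drives lipid synthesis genes, was 156, 129 and 342 FPKM in NP and 83.2, 72.1 and 93.2 at dpc8, with a log2 fold change of -1.20. In the list of fatty acid and triglyceride synthesis, 13 of 19 genes were negative with a median of -0.09, or -0.42 without NP replicate 2 and -0.33 with the covariate.

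**Figure D4:**
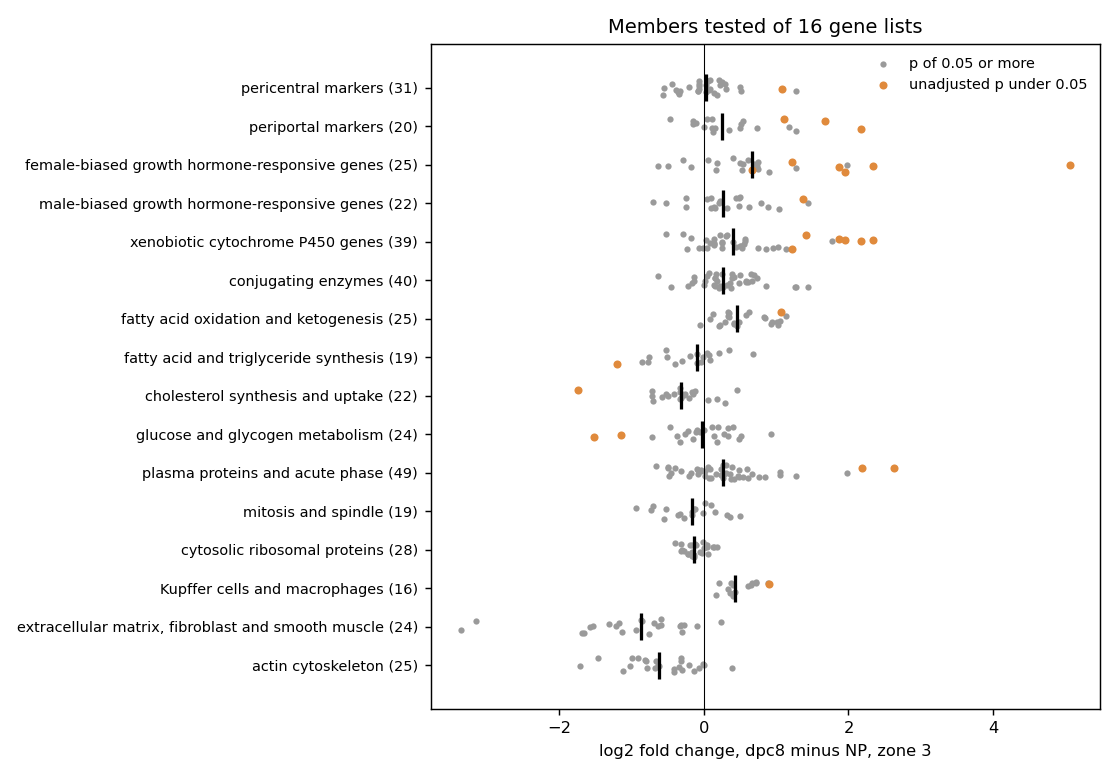
Log2 fold change at dpc8 against NP in zone 3 for the tested members of 16 gene lists (number in brackets); points are genes, orange where the unadjusted p is under 0.05, and black bars are medians. The medians run from -0.86 for the connective tissue list to 0.66 for the female-biased list, and that of the pericentral markers is 0.03.

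The remaining genes named by the rule come from no shared list. With higher values, Gm15446, a predicted gene that shares 28.2% of its 86-base stretches with Zfp932 and another gene, was 0.0784, 0.946 and 0.919 FPKM in NP and 10.5, 4.01 and 17.6 at dpc8. This gene reached the FPKM minimum only through the dpc8 libraries, where it is high, so its groups had to differ. Slc41a2, a magnesium transporter, was 1.93, 7.08 and 2.08 FPKM in NP and 29.9, 11.99 and 12.8 at dpc8, and its log2 fold change of 2.08 at dpc8 stood beside 5.01 at dpc16. Them7, Susd1 and Fhit had log2 fold changes of 1.69, 1.67 and 1.63. With lower values, Mug2, a murinoglobulin that traps proteases, was 86.1, 99.1 and 88.7 FPKM in NP and 45.7, 30.6 and 33.0 at dpc8. For Mug2 the log2 fold change was -1.32 ± 0.37 (SE) in zone 3, -1.39 in zone 1, -1.54 in zone 2 and -2.47 in zone 3 at dpc16, and 9.52% of its 86-base stretches are shared with relatives. Rnf157, a ubiquitin ligase, was 6.61, 4.51 and 6.90 FPKM in NP and 0.309, 1.27 and 0.784 at dpc8, with a log2 fold change of -1.99. Plekha1, a phosphoinositide-binding adaptor, was 40.7 FPKM in NP replicate 2 and 6.96 and 4.42 in the other NP libraries, so that its log2 fold change of -1.83 was -0.94 without that library. The log2 fold changes of Ctu2, Recql, 4921524J17Rik, Scoc, Dnajc24 and Pin4 lay between -1.61 and -1.32.

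Ihh, which encodes the ligand Indian hedgehog, was 3.32, 1.46 and 5.51 FPKM in NP and 0.503, 0.633 and 0.957 at dpc8. It reached the FPKM minimum only through the NP libraries, where it is high, so its groups had to differ and its test is no support for a change. For Ihh the log2 fold change was -1.28 ± 0.29 (SE) with a limma adjusted p of 0.524, and -1.65 with an adjusted p of 0.0282 without NP replicate 2. In zones 1 and 2 the mean of Ihh was at most 0.307 FPKM at every stage.

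The direction of the proliferation lists in zone 3 turned with 1 library. Of 19 mitosis and spindle genes tested, 6 were positive with a median log2 fold change of -0.16, against medians of 1.68 in zone 1 and 1.16 in zone 2 (1.94 and 0.85 without the libraries with Y-linked values). Without NP replicate 2, 16 of the 19 were positive and the median was 0.49, and with the covariate the median was 0.20. No member of this list had an unadjusted p under 0.05. Of 21 DNA replication genes 7 were positive, or 13 without NP replicate 2, and of 12 G1 cyclins and inhibitors 4 were, or 8 without it. The members at an unadjusted p under 0.05 were 1 of the 21 (Rfc4, log2 fold change -1.18), against 1.59% of all genes with lower values, and 1 of the 12, against 1.31% with higher values (Cdkn2c, 0.92, at 4.65, 2.63 and 7.10 FPKM in NP and 9.03, 9.77 and 9.496 at dpc8).

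Markers of other cell types were measured beside the hepatocyte genes. In mixed tissue, fewer cells of a type and less RNA per cell cannot be told apart. Of 24 genes of extracellular matrix, fibroblasts and smooth muscle, 23 were negative with a median log2 fold change of -0.86, and of 25 actin cytoskeleton genes 24 were negative with a median of -0.63. No gene of these lists had an unadjusted p under 0.05. Tagln, a smooth muscle gene, was 97.5, 337 and 5.90 FPKM in NP and 1.29, 57.9 and 0.590 at dpc8, and its log2 fold change of -3.36 ± 2.78 (SE) was -2.12 without NP replicate 2. Without that library the medians were -0.41 and -0.10, and with the covariate, which is built from the first of these lists, 0.08 and 0.06. The summed actin list was 6796 FPKM in NP replicate 2 and 2391 to 3456 in the 5 other libraries.

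Of the 16 Kupffer cell and macrophage genes, all 16 were positive with a median log2 fold change of 0.43, and without NP replicate 2 the median was 0.41 with 16 of 16 positive. With the connective tissue covariate 15 of 16 were positive and the median was 0.27. In 5 of the genes the groups did not overlap, against 4.98% of all genes. Their summed level was 321 to 380 FPKM in NP and 393 to 542 at dpc8. Cd5l, a macrophage protein, was 17.3, 23.6 and 29.9 FPKM in NP and 40.8, 56.3 and 36.5 at dpc8, with a log2 fold change of 0.90 ± 0.40 (SE) and a limma adjusted p of 0.999. C1qa, a complement subunit made by macrophages, was 29.3, 27.5 and 24.2 FPKM in NP and 50.8, 46.5 and 39.3 at dpc8. The median of the Kupffer cell list was -0.25 in zone 1 and -0.38 in zone 2, or -0.29 and -0.16 without the libraries with Y-linked values. The biliary list summed to 30.6 to 58.8 FPKM in NP, highest in replicate 1, and to 25.8 to 37.0 at dpc8, and the leukocyte list summed to at most 14.3 FPKM. Their part in the results above was not tested.

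The changes in zone 3 were set against those in the other zones gene by gene. By limma with Benjamini-Hochberg adjustment, the effect of dpc8 in zone 3 differed from that in zone 1 for 0 of 11015 genes (0.0%) and from that in zone 2 for 0 (0.0%). Without adjustment 233 genes (2.12%) differed from zone 1 at p under 0.05, 89 upwards (0.808%) and 144 downwards (1.31%). Another 300 (2.72%) differed from zone 2 in a separate test, 170 upwards (1.54%) and 130 downwards (1.18%). With stage and replicate number as a block the counts of 233 and 300 became 375 and 496, and 0 genes passed the adjusted threshold. Of the 144 genes with higher values in zone 3 at an unadjusted p under 0.05, 99 had a positive log2 fold change in zone 1 (68.8%, against 51.1% of all genes tested) and 96 in zone 2 (66.7%, against 47.8%). Of the 175 with lower values, 100 were negative in zone 1 (57.1%, against 48.9%) and 112 in zone 2 (64.0%, against 52.2%). Same-numbered libraries of different zones deviated together in part, and the part this has in the agreement of signs was not tested. A1bg, Cyp3a44, Bcl6 and Mug2 had log2 fold changes of one sign in all 3 zones. Those of Cyp2f2 were -0.01 in zone 1 and -0.01 in zone 2.

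**Figure D5:**
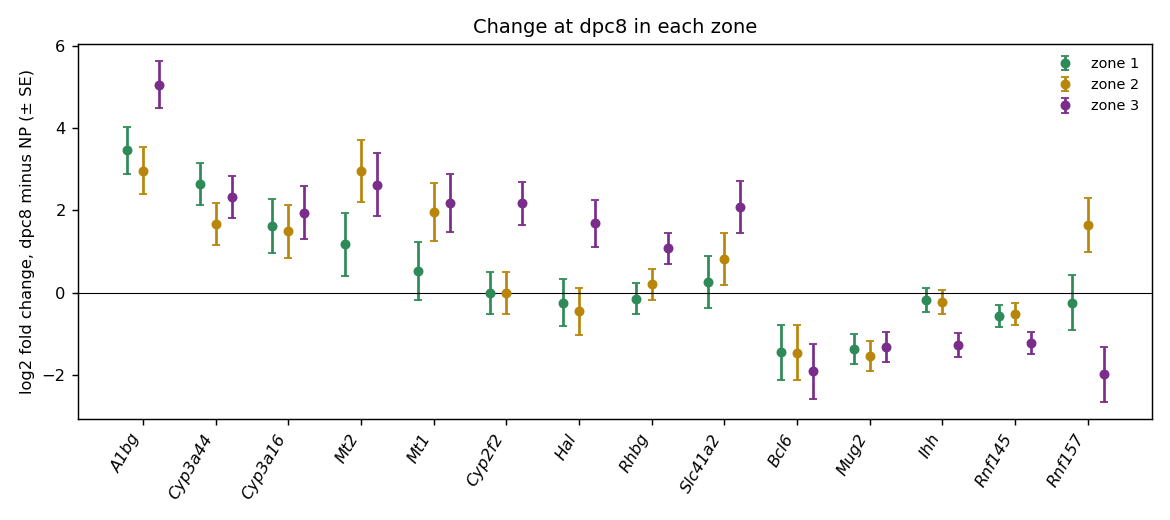
Log2 fold change at dpc8 against NP in zones 1, 2 and 3 for 14 named genes; points are limma estimates and bars are ± SE. A1bg, Cyp3a44, Bcl6 and Mug2 lie on one side of 0 in all zones, whereas Cyp2f2 and Hal are above 0 in zone 3 alone.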

How the data were processed

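RNA of microdissected zones was depleted of ribosomal RNA and sequenced by the authors from a single end of 86 bases. Per the labels and methods, reads were trimmed with cutadapt, aligned to mm10 with HISAT2 2.1.0 and, where uniquely mapped, counted for the protein-coding genes of GENCODE by Cuffdiff (Cufflinks 2.2.1). FPKM were computed by the authors and deposited with 1 column for each of the 27 libraries. Uniquely mapped reads understate genes with near-identical copies. No read counts are given. Depth was estimated from the steps of low FPKM values of genes with a single transcript, of which 94.6% to 100.0% lay within 0.1 of a whole read in the 6 libraries, and 1 read on 1 kilobase corresponds to 0.0487 to 0.0852 FPKM. These depths are approximate.

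Groups and replicate numbers came from the sample titles. Genes reaching an FPKM of 1 in 3 or more of the 6 libraries were tested on log2(FPKM + 1) with limma 3.58.1 (R 4.3.3), with 1 mean for each of 9 groups, an intensity trend and robust settings, two-sided, with Benjamini-Hochberg adjustment and a threshold of 0.05. Fold changes on this scale understate those of weakly expressed genes. Fits were tested on simulated data. The 35 gene lists, the comparison and the named genes were chosen with earlier results of these data known; lists are described by counts and medians, without a test. Genes were named if they passed the adjusted threshold, met the rule given in the text, belonged to a list with an unadjusted p under 0.05 or with an extreme value, or are pericentral markers or named by the study, and some of them are not reported here. The other genes given, such as Rnf145, Ihh, Prlr, Cyp2b13, C1qa and the plasma proteins beside the metallothioneins, were chosen after their values were seen. Positions are from GENCODE vM21 and upstream sequences from RefSeq on GRCm38.p6; 10935 of the 11015 genes had a position.

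The pairing of replicate numbers was checked. Same-numbered NP and dpc8 zone 3 libraries deviated together from their group means, with correlations of 0.112, 0.217 and 0.175, so the numbers met the criterion for pairs. Within a stage, same-numbered libraries of zone 3 and the other zones had correlations of -0.0759 to 0.615. For dpc8 zone 3 against dpc8 zone 2 they were 0.389, 0.349 and 0.386, so the contrasts between zones may not rest on independent libraries. The reported values come from the fit without a block, and fits with the replicate number as a block were run beside it. The labels do not say what a number stands for, and the study speaks of independent experiments. Alternatives were other pseudocounts, filters and scalings, array weights, a connective tissue covariate, blocks, a fit of the 6 libraries, and fits without single libraries or those with Y-linked values.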

Additional observations from a re-analysis of the deposited data

Results flagged for a closer look

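The 4 Y-linked genes Ddx3y, Eif2s3y, Kdm5d and Uty, none of which entered the comparison, summed to 7.92 FPKM in NP zone 3 replicate 2, against at most 0.973 in the 5 other zone 3 libraries of this comparison, although the mice are labelled female. Of the genes named in the text, 3 had groups that did not overlap in zone 3 and groups apart in the opposite direction in zone 2. Many of the named genes were chosen for groups apart in zone 3, as were 4.98% of all genes upwards and 5.0% downwards. The share of all genes with opposite groups in zone 2 was not counted, so the 3 are no result about these genes. For C1qa the dpc8 change in zone 3 minus that in zone 2 was 1.30 on the log2 scale, for 4921524J17Rik it was -2.50 and for Rnf157 it was -3.64. The limma test of these differences gave unadjusted p-values of 0.0326, 0.000201 and 0.000871 and an adjusted p of 0.998 for each, so none passed. Rnf157 was 1.02, 0.770 and 0.580 FPKM in NP zone 2 and 5.39, 7.12 and 2.34 at dpc8.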

How the results depend on the processing

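Across 18 other settings, A1bg was called in 17. The exception was the fit of only the 6 libraries compared, which called 0 genes higher, with A1bg at a log2 fold change of 5.06 and a limma adjusted p of 0.0565. Array weights gave 5 genes higher and 3 lower, adding Cyp2f2, Cyp3a44 and Fam84b above and Ihh, Rnf145 and Mug2 below. Leaving out the libraries with Y-linked values also gave 5 and 3, adding Hal, Cyp2f2 and Cyp3a44 above and Rnf145, Cndp2 and Mug2 below. In this fit the limma adjusted p was 0.00522 for Hal and 0.0109 for Cyp2f2. Without NP zone 3 replicate 2 alone these were 0.403 and 0.101. The connective tissue covariate gave 3 higher and 1 lower, adding Ly6a and Mug2. With the replicate block the counts were 2 higher and 0 lower, and the block changed no call. Over the 6 fits that each left out 1 library, the count was 2 to 2 higher and 0 to 1 lower, the 1 being Ihh without NP zone 3 replicate 2. Ihh, also called with array weights, entered the test only through the NP libraries, where it is high, so these calls are no support for a change. A1bg ranged from 4.57 to 5.34. Those near 0 changed sign: Cyp2e1 was 0.10 with quantile normalization and -0.28 to 0.084 over these fits, Slc45a3 was -0.0098 with the covariate and -0.69 to 0.67 over the fits, Tbx3 was -0.12 to 0.28 and Cyp2b13 -0.80 to 0.086. Without NP zone 3 replicate 2, 4 list medians moved by more than their spread between replicates, those of lipid synthesis (-0.42), bile acids (-0.03), clock genes (-0.54) and oxidative phosphorylation (-0.08). The connective tissue covariate moved 5, those of bile acids (0.0082), P450 enzymes (0.20), plasma proteins (-0.05), ribosomal proteins (0.017) and the actin cytoskeleton (0.06). The causes were not tested. The contrasts between zones gave 0 genes in all 18 settings. With 3 libraries a group and a median SE of 0.35, most changes of less than 1 log2 unit could not be told from the spread.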
